A study of Mus musculus with 18 samples.

Results

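Transferrin and the genes that take up, store, export and sense iron were followed in 18 mouse RNA sequencing libraries. The cells were oligodendrocyte progenitors (OPCs), which divide and mature into the oligodendrocytes that make myelin. The 10 genes were Trf, Tfrc, Steap3, Slc11a2, Fth1, Ftl1, Slc40a1, Ireb2, Aco1 and Hmox1, each taken by its symbol from a table of 38046 genes. Their positions below are those of GENCODE M21 on GRCm38. They were chosen by name with measured values known, because Trf was lower in the Thap1 null clones. The difference in Trf between genotypes is therefore given below as a description, with no test.

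The OPC lines were derived from primary neural stem cells. The 3 control clones were D7, D3 and E8, and the 3 clones labelled Thap1 null were 3F, D6 and 7F. Each clone was sampled once as OPCs (day 0, in OPC growth medium with PDGF-AA) and once after 2 and 4 days in vitro (DIV2 and DIV4) in oligodendrocyte differentiation medium with thyroid hormone (T3, 40 µg per ml as labelled), which gave 6 groups of 3 libraries. Thap1 encodes a zinc-finger transcription factor. How the null allele was made, and whether the clones of a genotype came from separate animals, is not given in the labels, so the p-values measure the spread between clonal lines. Over its 2 coding transcripts Thap1 had 4.04 ± 0.589, 2.40 ± 0.446 and 2.98 ± 0.716 rescaled TPM (a level corrected for transcript length and library composition, explained below) in control clones at OPC, DIV2 and DIV4. The null clones had 0.616 ± 0.149, 0.554 ± 0.186 and 0.472 ± 0.281 (SD, n = 3), below every control library of the same stage. With its noncoding transcripts included, Thap1 had 10.6 ± 1.20 rescaled TPM in null and 6.04 ± 1.89 in control OPCs, so the total did not follow the labels.

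Iron reaches most cells bound to transferrin, which docks on the transferrin receptor, is drawn into endosomes and releases its iron there for reduction by Steap3 and transport into the cytosol by Slc11a2. Iron that is not used is held in ferritin, a shell of heavy (Fth1) and light (Ftl1) chains, or leaves through ferroportin (Slc40a1). Oligodendrocytes are the main iron-rich cells of the brain and the main cells there that make transferrin themselves. When iron is scarce, the iron regulatory proteins Aco1 and Ireb2 bind a hairpin in target mRNAs, the iron-responsive element. Binding in the 5′ UTR blocks translation of ferritin and ferroportin, and binding in the 3′ UTR protects the transferrin receptor mRNA from decay.

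The hairpins are shown for the 4 members in which the search below found them. Among these, they separate Tfrc, whose mRNA level can report iron sensing, from Fth1, Ftl1 and Slc40a1, sensed mainly through translation. Mouse transcripts of GENCODE M21 (GRCm38) were searched on the transcript strand for an unpaired C, 5 stem bases, the loop CAGTGN and 5 bases that pair with the stem, G-T pairs allowed. The pattern was found in 4 of the 10 members and in 563 of 58797 coding transcripts (0.958%). It lay in the 5′ UTR of 0.0969% and in the 3′ UTR of 0.342% of them. Each line gives 27 bases, 5′ to 3′, with the 6 loop bases in capitals.
Fth1 5′ UTR, exon 1, chr19:9982733-9982759, plus strand: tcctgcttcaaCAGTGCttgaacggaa
Ftl1 5′ UTR, exon 1, chr7:45459780-45459806, minus strand: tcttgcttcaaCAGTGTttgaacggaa
Slc40a1 5′ UTR, exon 1, chr1:45925466-45925492, minus strand: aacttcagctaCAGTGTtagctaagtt
Tfrc 3′ UTR, exon 19, chr16:32631220-32631246, plus strand: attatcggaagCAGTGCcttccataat
Tfrc 3′ UTR, exon 19, chr16:32631599-32631625, plus strand: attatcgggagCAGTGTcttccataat
Tfrc 3′ UTR, exon 19, chr16:32631664-32631690, plus strand: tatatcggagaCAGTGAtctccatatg
Tfrc 3′ UTR, exon 19, chr16:32631711-32631737, plus strand: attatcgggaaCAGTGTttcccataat
A match describes these letters and is not evidence of binding. For the other 6 members, Slc11a2 among them, the absence of a match says only that these letters were not found in their transcripts. Hairpins that depart from the pattern were not searched for. Whether the mRNA levels of these members can report iron sensing is not shown by this search.

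The deposited values are TPM (transcript abundance scaled to a fixed total), which correct for transcript length and sum to 1000000 in every library. In control OPCs protein-coding transcripts held only 5.05% to 9.0% of that total, against 19.1% to 38.8% in the other 15 libraries. All levels below were therefore divided by median-of-ratios factors and are called rescaled TPM. This scaling takes the typical gene as unchanged between libraries. Sequencing depth is unknown, because TPM keeps none. Neuron markers summed to 6.82 to 89.0 rescaled TPM, with 1 to 3 of the 7 at a group mean of at least 1. Markers of microglia and of endothelial or mesenchymal cells summed to at most 4.79 rescaled TPM in any library and choroid plexus markers to at most 5.64, with C1qa and Cldn5 at 0 in all 6 groups. Control D7 at DIV4 stood apart from its group, with 13436 rescaled TPM over 15 oligodendrocyte markers against 2744 in D3 and 2485 in E8.

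Trf was low in OPCs and rose in both genotypes over the first days of differentiation, but null clones stayed far below control clones. Trf (ENSMUSG00000032554, chr9:103204001-103230444, minus strand) had 0.750, 6.61 and 12.4 rescaled TPM in control OPCs (D7, D3 and E8) and 0.497, 0.474 and 0.610 in null OPCs (3F, D6 and 7F). At DIV2 the control clones had 66.6, 77.1 and 106, and the null clones 3.97, 4.31 and 3.55. At DIV4 the control clones had 60.0, 42.9 and 111, and the null clones 3.88, 5.92 and 2.45. The genotypes did not overlap at any stage, and control D7 lay close to the null clones only in OPCs.

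The mean of the null clones was 12.5-fold lower in OPCs, 21.1-fold lower at DIV2 and 17.5-fold lower at DIV4. On the log2(rescaled TPM + 1) scale, which understates changes of low genes, null minus control was -1.88 (SE 0.54) in OPCs, -4.07 (SE 0.54) at DIV2 and -3.78 (SE 0.54) at DIV4. On the deposited TPM the OPC difference was -0.47 and the clones overlapped, with 0.219, 2.10 and 1.56 TPM in control and 0.676, 0.343 and 0.621 in null OPCs. The differences at DIV2 (-4.32) and DIV4 (-4.02) were of similar size on that scale. In these bulk libraries fewer cells that make transferrin and less Trf RNA per cell cannot be told apart.

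The change of Trf over time within a genotype was not itself used to choose the genes and was tested with limma. It rests on the same libraries as the genotype difference that was used. Its p-values are therefore not independent of the choice. Control clones rose 12.6-fold between OPC and DIV2 (log2 change 3.88, SE 0.54, adjusted p = 0.000152). Null clones rose 7.48-fold in the same interval (1.69, SE 0.54, adjusted p = 0.0313). Their DIV2 levels lay below control D3 and E8 OPCs in rescaled TPM, but above every control OPC library in deposited TPM (5.15, 5.30 and 5.50). That rise in null clones no longer passed when any of the null clones was left out (adjusted p 0.131 to 0.175) or with no filter on low genes (adjusted p = 0.107). From DIV2 to DIV4 no change passed the test in control (-0.30, SE 0.54, adjusted p = 0.916) or null clones (-0.01, SE 0.54, adjusted p = 0.999).

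Trf is read from transcripts that overlap a read-through gene. Of its 31-base words, 63.9% also occur in other genes and 60.6% in Gm20425, which spans Trf and its neighbour Srprb. Gm20425 itself had at most 2.08 rescaled TPM in any library. With Gm20425 added to Trf, the null minus control differences were -1.94, -3.96 and -3.62 at the 3 stages. The coding transcript ENSMUST00000035158 carried 84.0% ± 3.57 of Trf in control and 71.5% ± 7.20 in null clones at DIV2 (SD, n = 3). At DIV4 its shares were 77.4% ± 7.55 and 68.0% ± 9.53. In OPCs it held 43.1% ± 11.0 in control and 30.7% ± 7.71 in null clones, and in 3 OPC libraries (control E8 and null 3F and 7F) another transcript was higher.

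**Figure D1:**
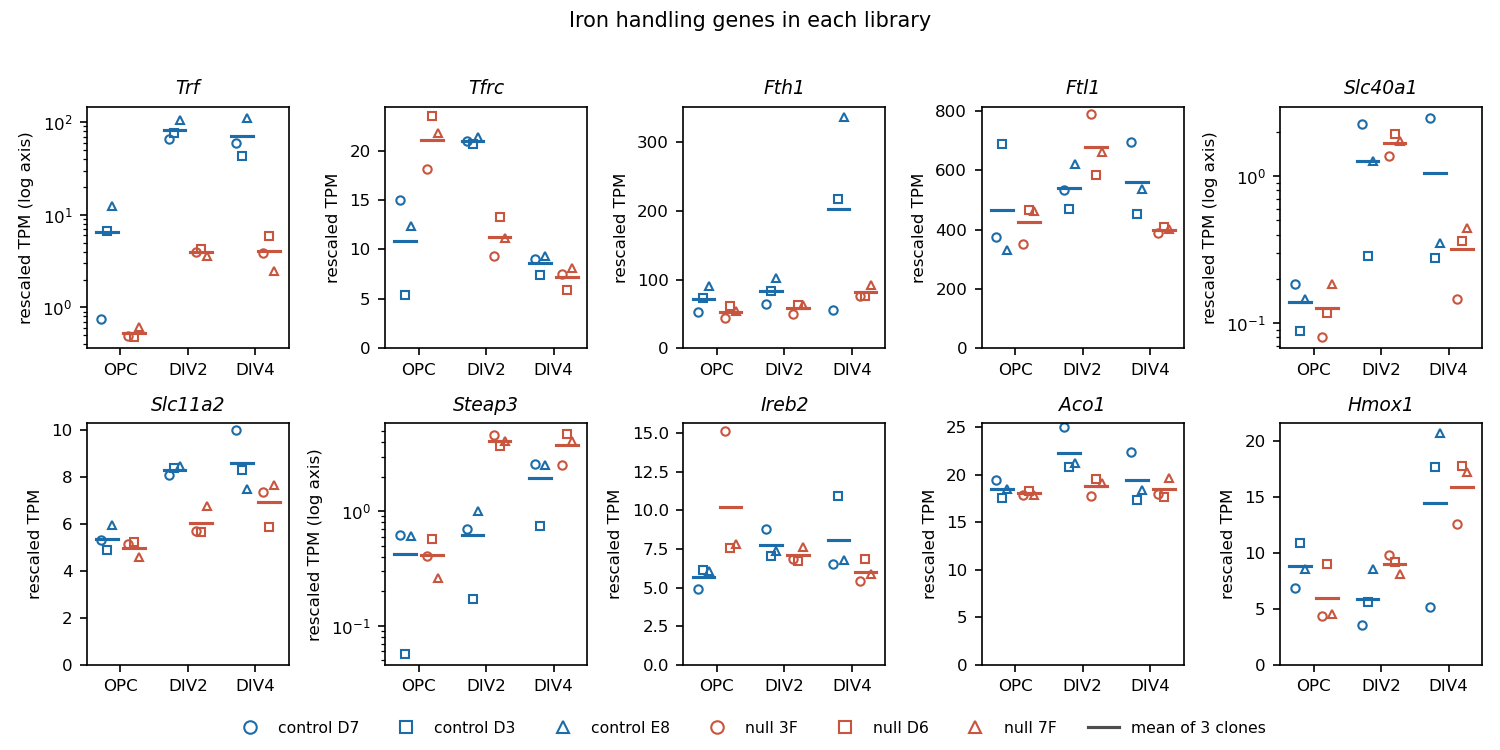
Level of each gene in each library, in rescaled TPM, by stage, with control clones in blue, null clones in red, a marker shape per clone and a line at the mean of 3 clones. The axes of Trf, Slc40a1 and Steap3 are logarithmic and the others start at 0. The null clones lie between 0.474 and 5.92 for Trf, while the control clones reach 42.9 to 111 at DIV2 and DIV4.

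The level of Trf was set beside markers of the cell that makes it. The 15 oligodendrocyte markers (Mbp, Mag, Mog, Mobp, Cnp and others) summed to 123 to 790.2 rescaled TPM in control OPCs and 345 to 522 in null OPCs. At DIV2 they summed to 3853 to 6923 in control and 3402 to 3903 in null clones. At DIV4 they summed to 13436, 2744 and 2485 in control D7, D3 and E8 and to 2107, 3147 and 2237 in null clones. Trf was 60.0, 42.9 and 111 in those control libraries and 3.88, 5.92 and 2.45 in those null libraries. The part of the marker sums in the Trf difference was not tested. Per 1000 rescaled TPM of marker sum, Trf was 16.7 ± 6.11 in control and 1.06 ± 0.0321 in null clones at DIV2 (SD, n = 3). At DIV4 it was 4.46, 15.6 and 44.8 in control clones, highest in E8, and 1.84, 1.88 and 1.09 in null clones.

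Of the 13 oligodendrocyte markers tested, 11 were called in control and 9 in null clones between OPC and DIV2, all upward. Of all genes tested, 35.0% and 27.9% were called in these comparisons. The markers' median difference between genotypes was 0.23 in OPCs, -0.41 at DIV2 and -1.03 at DIV4, against 0.04, 0.00 and -0.01 over all genes tested. Only Mobp, a structural protein of central myelin, fell below Trf in any comparison, with a log2 change of -5.51 at DIV4 against -3.78 for Trf. Mobp passed the limma test at DIV2 (-3.56, adjusted p = 0.0223) and DIV4 (adjusted p = 0.000949), and carbonic anhydrase 2 (Car2) at DIV4 (-2.23, adjusted p = 0.0191). These were 1 of the 13 markers at DIV2 and 2 at DIV4, where 2.80% and 4.82% of all genes were called. Car2 reached the minimum mean for testing only through the control DIV4 group, so its call there is not independent of that filter. It had 18.7, 1.76 and 4.49 rescaled TPM in D7, D3 and E8 at DIV4. The other groups averaged 0.147 to 0.472. Over all 12462 genes tested, 95 lay below Trf in OPCs, 7 at DIV2 and 9 at DIV4. Trf was chosen for being lower in null clones, so its place among the markers and among all genes is no separate result.

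**Figure D2:**
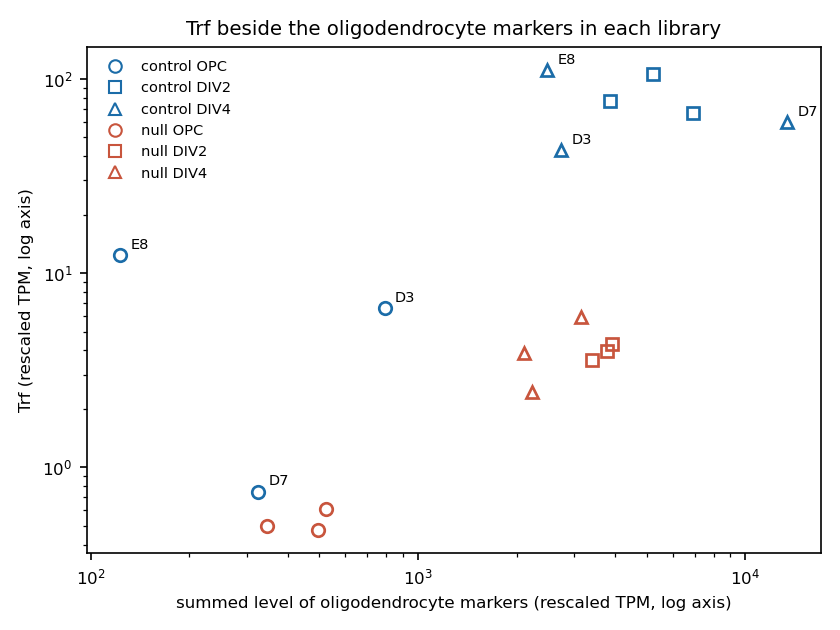
Trf against the summed level of 15 oligodendrocyte markers in each of the 18 libraries, both in rescaled TPM on logarithmic axes, with colour for genotype, shape for stage and clone names beside the control OPC and DIV4 libraries. On the marker axis, null DIV2 libraries lie at 3402 to 3903 and control DIV2 libraries at 3853 to 6923. At DIV4 null libraries lie at 2107 to 3147 and control D7, D3 and E8 at 13436, 2744 and 2485. Null DIV2 and DIV4 libraries lie at 2.45 to 5.92 for Trf.

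Tfrc (chr16:32608920-32632794), the receptor that brings transferrin-bound iron into the cell, moved in opposite directions in the 2 genotypes over the first 2 days. In OPCs it had 15, 5.43 and 12.4 rescaled TPM in control and 18.1, 23.5 and 21.8 in null clones. At DIV2 it had 21, 20.7 and 21.4 in control and 9.38, 13.3 and 11.2 in null clones. At DIV4 it had 9.02, 7.45 and 9.32 in control and 7.54, 5.92 and 8.13 in null clones. The null clones were thus above all control clones in OPCs and below all of them at DIV2, and the genotypes overlapped at DIV4.

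In OPCs Tfrc was 1.93-fold higher in null clones (log2 change 0.98, SE 0.25, limma adjusted p = 0.0224). The difference at DIV2 was -0.86 (SE 0.25, adjusted p = 0.0993) and at DIV4 -0.23 (SE 0.25, adjusted p = 0.672), and neither passed. Control clones rose 1.92-fold from OPC to DIV2 (0.99, SE 0.25, adjusted p = 0.00843), while the change in null clones was -0.85 (SE 0.25, adjusted p = 0.0213). The difference between these changes was itself tested and passed, at -1.84 (SE 0.36, adjusted p = 0.0422). From DIV2 to DIV4 the change was -1.21 (SE 0.25, adjusted p = 0.0631) in control clones and -0.58 (SE 0.25, adjusted p = 0.266) in null clones, and the DIV4 level lay below the DIV2 level in every library.

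The fall in null clones no longer passed when any null clone was left out (adjusted p 0.0900 to 0.145), with no filter (0.0668) or on the deposited TPM (-0.45, adjusted p = 0.358). The rise in control clones did not pass with only the libraries compared (adjusted p = 0.111). The OPC difference and the difference between changes no longer passed when control E8 or any null clone was left out (adjusted p 0.0542 to 0.143 and 0.104 to 0.314). The OPC call was also lost with no filter (limma adjusted p = 0.0592) or only the libraries compared (0.250). The difference between changes was lost in those settings too, and with a pseudocount of 0.1. These 2 kept their direction on the deposited TPM (2.72 and -3.76), where each passed. On that scale, though, 81.0% of all genes were called in OPCs. For the difference between changes, 7 of the 8 members tested were called there. Tfrc shares none of its 31-base words with other genes. Its coding transcript ENSMUST00000023486, which carries the 4 hairpins shown above, had 6.14 ± 3.25 rescaled TPM in control OPCs and 17.0 ± 3.71 in null OPCs. At DIV2 its levels were 18.6 ± 0.488 in control and 9.36 ± 2.38 in null clones (SD, n = 3). The short coding transcript ENSMUST00000120680 (1860 bases), in which the pattern was not found, carried 26.7% ± 12.8 of Tfrc in control OPCs and 2.51% to 10.9% on average in the other groups.

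The ratio of Trf to Tfrc summed up both genes in each library. It was 3.17, 3.72 and 4.97 in control and 0.423, 0.324 and 0.318 in null clones at DIV2. At DIV4 it was 6.65, 5.76 and 11.9 in control and 0.515, 0.999 and 0.301 in null clones. Transferrin RNA exceeded that of its receptor in all 6 differentiated control libraries and in none of the differentiated null libraries, where null D6 at DIV4 came closest. In OPCs the ratio averaged 0.757 ± 0.622 in control clones, with 1.22 in D3, and 0.0252 ± 0.00437 in null clones (SD, n = 3). Trf was chosen for being lower in null clones, so the split of this ratio between genotypes is no separate result.

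Steap3 (chr1:120190757-120272705), the ferrireductase that reduces iron in the endosome, was higher in null clones at DIV2. It had 0.614, 0.0569 and 0.605 rescaled TPM in control and 0.409, 0.568 and 0.264 in null OPCs. At DIV2 the levels were 0.705, 0.173 and 1.0 in control and 4.58, 3.74 and 4.07 in null clones, with every null clone above every control clone. At DIV4 it had 2.58, 0.744 and 2.52 in control and 2.51, 4.67 and 4.09 in null clones, and the genotypes overlapped.

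The DIV2 levels of Steap3 differed 6.59-fold (log2 change 1.69, SE 0.30, limma adjusted p = 0.00548), and 2 of the 6 settings that left out a clone ended the call (null 3F, adjusted p = 0.0644, and null 7F, adjusted p = 0.0784). In null clones Steap3 rose 9.98-fold from OPC to DIV2 (1.86, SE 0.30, adjusted p = 0.000480), and in control clones the change was 0.18 (SE 0.30, adjusted p = 0.672). The difference between these changes was 1.68 (SE 0.42, adjusted p = 0.0906), which passed when each clone was kept as a block (adjusted p = 0.0317). At DIV4 null minus control was 0.73 (SE 0.30, adjusted p = 0.178). The transcript ENSMUST00000112640 held most of the rise, with 0.254 ± 0.229 rescaled TPM in control and 3.34 ± 0.327 in null clones at DIV2 (SD, n = 3).

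Slc11a2 (chr15:100387898-100425072), the divalent metal transporter that carries iron out of the endosome, rose 1.54-fold in control clones between OPC and DIV2 (log2 change 0.55, SE 0.12, limma adjusted p = 0.00391). It had 5.30, 4.87 and 5.94 rescaled TPM in control OPCs and 8.06, 8.37 and 8.45 at DIV2. The null clones had 5.15, 5.23 and 4.61 in OPCs and 5.68, 5.67 and 6.78 at DIV2, a change of 0.23 (SE 0.12, adjusted p = 0.189). The difference between these changes did not pass (-0.32, SE 0.18, adjusted p = 0.445). Null minus control was -0.09, -0.40 and -0.27 at the 3 stages (SE 0.12, limma adjusted p = 0.686, 0.114 and 0.235). Every null clone lay below every control clone only at DIV2. The transcripts differed. ENSMUST00000023774 averaged 1.52 rescaled TPM in control OPCs and 3.40 at DIV2, against 2.16 and 3.79 in null clones. At DIV2 the coding transcript ENSMUST00000138843 averaged 2.89 in control and 1.63 in null clones. ENSMUST00000136168, annotated as subject to nonsense-mediated decay and not as coding, averaged 0.994 and 0.00321 in the same groups. Single transcripts were not tested.

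The ferritin chains passed the test in no comparison. The most abundant member in every library was Ftl1 (chr7:45457944-45459884), the light chain that helps the iron core form, with 331 to 688 rescaled TPM in control OPCs and 353 to 465 in null OPCs. At DIV2 Ftl1 had 468 to 619.6 in control and 585 to 789.7 in null clones. At DIV4 it had 694, 453 and 535 in control and 390.0, 409 and 401 in null clones, with the null clones lower in each case. That last difference was -0.46 (SE 0.25, limma adjusted p = 0.311), and those in OPCs and at DIV2 were -0.06 (SE 0.25, adjusted p = 0.903) and 0.33 (SE 0.25, adjusted p = 0.599). In null clones Ftl1 changed by 0.67 from OPC to DIV2 (SE 0.25, adjusted p = 0.0559) and by -0.75 from DIV2 to DIV4 (SE 0.25, adjusted p = 0.132), with no overlap between stages. The first of these passed without the control D7 DIV4 library (adjusted p = 0.0447).

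Fth1 (chr19:9980598-9985098), the heavy chain that oxidises iron for storage, differed most at DIV4 and there depended on 1 control library. It had 53.7, 73.0 and 91.0 rescaled TPM in control and 44.0, 62.5 and 53.8 in null OPCs. At DIV2 Fth1 had 64.1, 83.5 and 103 in control and 50.6, 63.9 and 63.0 in null clones, just without overlap. At DIV4 control D7 had 55.6, D3 217 and E8 337, against 76.8, 76.3 and 93.0 in null clones. The differences of -0.42, -0.47 and -0.96 (SE 0.46, limma adjusted p = 0.582, 0.715 and 0.250) did not pass.

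Without the control D7 DIV4 library, a choice made after its values were seen, Fth1 was lower in null clones at DIV4 (-1.72, adjusted p = 0.00214) and rose in control clones from DIV2 to DIV4 (1.71, adjusted p = 0.00442). In the same 3 control libraries (D7, D3 and E8) the 7 astrocyte markers, none of them at 0 and 6 with a group mean of at least 1, summed to 94.5, 348 and 557 rescaled TPM. In the null DIV4 libraries, with 5 at a mean of at least 1, they summed to 443, 405 and 488. The part of these cells in the Fth1 levels was not tested.

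The heavy chain stayed below the light chain in every library, with an Fth1 to Ftl1 ratio of 0.0641 to 0.631. At DIV4 the ratio was 0.0801, 0.479 and 0.631 in control and 0.197, 0.187 and 0.232 in null clones, so D7 and the other control clones lay on opposite sides of the null clones.

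Ferritin genes have many processed copies, which can share reads with them. The table held 16 names of such copies and relatives, 11 for the heavy and 5 for the light chain, and 8 heavy-chain copies were listed at 0 in all 18 libraries. The most abundant copy, Gm15590, a light-chain copy, had at most 3.28 rescaled TPM. The copies together came to 0.353% to 1.07% of Ftl1 and 0% to 2.55% of Fth1. Ftl1 shares 64.1% of its 31-base words with other genes, 54.4% with Ftl1-ps1 (Gm10116 in the table, at most 1.61 rescaled TPM), so its split from this copy is uncertain, while Fth1 shares 3.24%. Adding the copies left the Fth1 differences at -0.40, -0.47 and -0.97.

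Slc40a1 (chr1:45908068-45926523), ferroportin, the only known iron exporter of mammalian cells, was near the lower limit of the table. It averaged below 1 rescaled TPM over the 18 libraries and was the 1 member left out of the tests. OPC libraries had 0.0799 to 0.185. At DIV2 control clones had 2.25, 0.285 and 1.27 and null clones 1.36, 1.93 and 1.72. At DIV4 control D7 kept 2.48 while the other control clones had 0.278 and 0.352 and the null clones 0.145, 0.364 and 0.443. All groups of a stage overlapped.

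Neither iron sensor passed the test between genotypes at any stage. Aco1 (chr4:40143081-40198338), which is the cytosolic aconitase when it holds an iron-sulfur cluster and an RNA-binding protein when it does not, had 17.3 to 25.0 rescaled TPM in all 18 libraries. Null minus control was -0.03, -0.23 and -0.06 at the 3 stages (SE 0.11, limma adjusted p = 0.882, 0.345 and 0.822), and only at DIV2 did all null clones lie below all control clones. From OPC to DIV2 the control clones went from 19.4, 17.5 and 18.5 to 25.0, 20.8 and 21.2, a change of 0.26 (SE 0.11, adjusted p = 0.0787) that passed with the clone as a block (adjusted p = 0.0376).

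Ireb2 (chr9:54863789-54912530), the sensor that is degraded when iron is plentiful, had 4.90, 6.13 and 6.10 rescaled TPM in control OPCs and 15.1, 7.57 and 7.81 in null OPCs. All null clones were higher, null 3F by the most, a 1.78-fold difference in means. The difference of 0.68 (SE 0.22, limma adjusted p = 0.0617) did not pass, but it did with the protein-coding total (1.04, adjusted p = 0.0208). Without null 3F it was 0.38 (adjusted p = 0.277). At DIV2 Ireb2 had 8.80, 7.07 and 7.38 in control and 6.88, 6.75 and 7.64 in null clones, and at DIV4 6.52, 10.9 and 6.76 against 5.42, 6.82 and 5.89. These differences were -0.11 (SE 0.22, adjusted p = 0.889) and -0.33 (SE 0.22, adjusted p = 0.436).

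Hmox1 (chr8:75093621-75100589), the inducible enzyme that frees iron from heme, also turned on the control D7 DIV4 library. It had 6.86, 10.9 and 8.60 rescaled TPM in control and 4.33, 9.02 and 4.53 in null OPCs. At DIV2 the levels were 3.59, 5.61 and 8.52 in control and 9.80, 9.19 and 8.15 in null clones. At DIV4 it had 5.14, 17.7 and 20.7 in control and 12.6, 17.8 and 17.2 in null clones. The genotypes overlapped at each stage, and the differences of -0.54, 0.60 and 0.30 (SE 0.40, limma adjusted p = 0.406, 0.535 and 0.738) did not pass. Without that library Hmox1 rose in control clones from DIV2 to DIV4 (1.61, adjusted p = 0.0110, against 1.04, SE 0.40, adjusted p = 0.354, with it).

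Counted over the genes, 9 of the 10 members passed the filter of a mean of at least 1 rescaled TPM, and 8 of these were tested between genotypes. Tfrc was the 1 member called in OPCs, where 12% of all genes tested were called, and Steap3 the 1 called at DIV2, where 2.80% were. No member was called by limma at DIV4 (4.82% of all genes), where Slc11a2 and Steap3 had an unadjusted p under 0.05. Between OPC and DIV2, 3 of 9 members rose in control clones (Trf, Tfrc and Slc11a2; 35.0% of all genes called). In null clones Trf and Steap3 rose and Tfrc fell (27.9% called). The Trf tests in these counts are not independent of the choice of genes. From DIV2 to DIV4 no member was called in control clones (0.233% called), where Hmox1, Steap3 and Tfrc had an unadjusted p under 0.05, or in null clones (2.10% called), where Ftl1 and Tfrc did. The differences between the genotypes' changes called Tfrc over the first 2 days (0.465% of genes) and no member over the next 2 (0.0241%), where Ftl1 and Steap3 had an unadjusted p under 0.05. Shares of all genes are given for the adjusted threshold only, so members named by an unadjusted p have no background beside them. The median change of the members tested between genotypes was -0.05, -0.17 and -0.25, against 0.04, 0.00 and -0.01 over all genes.

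The OPC comparison depends on the scale. On the deposited TPM 81.0% of all genes were called and the median gene was 1.5 higher in null OPCs. There Fth1 (1.66, adjusted p = 0.0225), Ftl1 (2.07, adjusted p = 0.000540), Slc11a2 (1.42, adjusted p = 0.000192) and Aco1 (1.86, adjusted p = 8.24e-05), Ireb2 (2.21, adjusted p = 0.000192) and Tfrc (2.72, adjusted p = 1.93e-05) were called higher by limma. Tfrc stood farthest above that median gene and Slc11a2 lay below it.

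**Figure D3:**
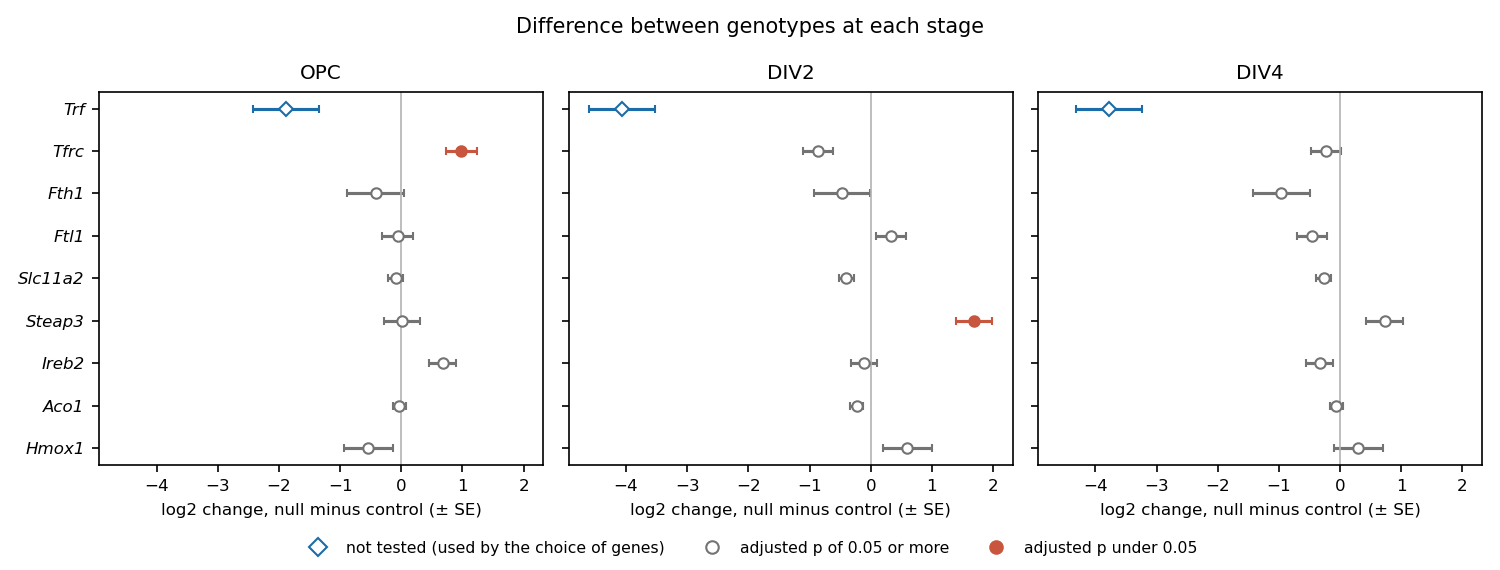
Null minus control difference at each stage for Trf and the 8 tested members, on the log2(rescaled TPM + 1) scale, with bars of 1 standard error. Blue diamonds mark Trf, which was not tested, filled red points have an adjusted p under 0.05 and open grey points do not. The filled points are Tfrc in OPCs (0.98) and Steap3 at DIV2 (1.69).

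The wider iron pathway, with targets of the stress-response factor NRF2 as 1 of the lists, was read from 75 further genes in 7 lists. Of the 75 genes, 52 were tested. Of these 52, 2 were called between genotypes in OPCs (3.85%), 2 at DIV2 (3.85%) and 4 at DIV4 (7.69%). These were near the shares of all genes at DIV2 and DIV4 and below it in OPCs. The median differences of the 52 genes were 0.06, 0.00 and -0.10. The genes called in OPCs and at DIV2 were Ncoa4 and the NRF2 target Slc7a11 each time. Heme synthesis (8 of 9 genes tested) and iron regulation (5 of 10 tested, among them Fbxl5, which marks Ireb2 for degradation) had no gene called by limma at any stage. At an unadjusted p under 0.05, heme synthesis had 0, 2 and 4 genes at the 3 stages and iron regulation 0 at each. The share of all genes under that unadjusted threshold is not given, so these counts cannot be set against a background.

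Slc39a14, a zinc transporter that also imports iron not bound to transferrin, was the 1 of 6 tested uptake and transport genes called. At DIV4 it had 6.89, 19.0 and 17.8 rescaled TPM in control and 41.3, 34.4 and 34.9 in null clones, a 2.53-fold difference (log2 change 1.39, SE 0.30, limma adjusted p = 0.0162). Slc39a14 rose in null clones from 9.01, 6.94 and 6.19 in OPCs to 19.2, 12.2 and 18.8 at DIV2 (1.07, SE 0.30, adjusted p = 0.0146). The DIV4 call was lost when any null clone was left out (adjusted p 0.0506 to 0.120) and on the deposited TPM (adjusted p = 0.271). The sums of the astrocyte markers in these DIV4 libraries are given above with Fth1, and their part in this difference was not tested.

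Among the genes of iron-sulfur cluster assembly 1 of 15 was called, at DIV4. Hspa9, the mitochondrial chaperone that helps hand over new clusters, had 46.2, 75.7 and 53.7 rescaled TPM in control and 96.9, 117 and 113 in null clones (log2 change 0.92, SE 0.17, limma adjusted p = 0.00797). It had risen in null clones since DIV2 (0.94, SE 0.17, adjusted p = 0.0151). Abcb6, a porphyrin transporter, was the 1 of 8 heme transport and breakdown genes called, with 4.58, 4.72 and 5.17 in control and 7.66, 8.64 and 11 in null clones at DIV4 (0.78, SE 0.17, adjusted p = 0.0202). In OPCs Abcb6 lay the other way without overlap, with 12.1, 9.43 and 11.5 in control and 8.08, 7.93 and 8.04 in null clones (-0.41, SE 0.17, adjusted p = 0.141). Abcb6 shares 52.1% of its 31-base words with Gm29253 and is uncertain. Leaving out null 7F ended the calls of Hspa9 (adjusted p = 0.106) and Abcb6 (adjusted p = 0.203), and leaving out control E8 ended that of Abcb6 (adjusted p = 0.0618). Neither passed on the deposited TPM (adjusted p = 0.488 and 0.418).

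Slc7a11, the cystine importer, was named after its values were seen, because its mean was under the level set for naming genes. Among 6 tested targets of the stress-response factor NRF2 it was the 1 called. It had 0.712, 0.860 and 1.22 rescaled TPM in control and 3.74, 3.14 and 3.19 in null OPCs (log2 change 1.18, SE 0.28, limma adjusted p = 0.0143). At DIV2 Slc7a11 had 0.752, 1.01 and 1.31 in control and 4.05, 6.78 and 5.2 in null clones (1.64, SE 0.28, adjusted p = 0.00423). At DIV4 the difference was 0.86 (SE 0.28, adjusted p = 0.0934).

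Ncoa4, the receptor that delivers ferritin to the lysosome so that its iron can be reused, was the 1 of 4 tested storage and export genes called, and it was called lower in null clones at all 3 stages. It had 22.6, 41.3 and 20.5 rescaled TPM in control and 9.26, 13.9 and 13.2 in null OPCs (log2 change -1.11, SE 0.22, limma adjusted p = 0.00518). The DIV2 levels were 29.5, 29.0 and 33.5 against 14.6, 14.3 and 13.5 (-1.06, SE 0.22, adjusted p = 0.0151). The DIV4 levels were 22.8, 29.6 and 32.2 against 14.7, 16.7 and 14.8 (-0.82, SE 0.22, adjusted p = 0.0441). Leaving out null 3F ended the OPC call (adjusted p = 0.0516), and leaving out control E8 or any null clone ended those at DIV2 (0.0519 to 0.158) and DIV4 (0.104 to 0.256). On the deposited TPM none of the 3 passed, and the OPC difference was 0.83 (adjusted p = 0.0783, then 0.227 and 0.316). The OPC and DIV4 calls were also lost with the protein-coding total (adjusted p = 0.0741 and 0.149) or only the libraries compared (0.166 and 0.0864), and the DIV4 call with no filter (0.106). The levels are uncertain too, because Ncoa4 shares 18.7% of its 31-base words with Gm6768, whose level mirrored it.

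Gm6768 had 10.5 to 21.2 rescaled TPM in control and 28.8 to 37.5 in null OPCs, 18.5 to 22.5 and 36.0 to 39.9 at DIV2, and 17.0 to 23.9 and 42.3 to 48.7 at DIV4. The sum of both genes was 43.9 ± 16.1 in control and 46.4 ± 7.22 in null OPCs, 51.7 ± 4.01 and 52.7 ± 2.11 at DIV2, and 49.1 ± 8.38 and 60.3 ± 4.44 at DIV4 (SD, n = 3). For this sum the null minus control differences were 0.12, 0.03 and 0.30 (limma adjusted p = 0.733, 0.98 and 0.435), the opposite sign to Ncoa4 alone.

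**Figure D4:**
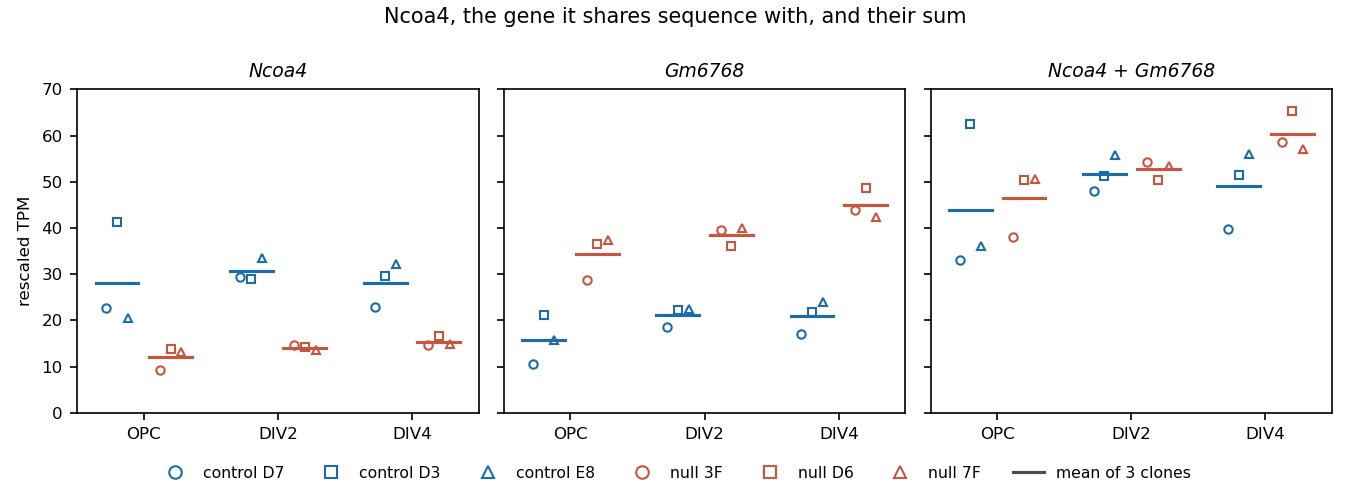
Levels of Ncoa4, of Gm6768 and of their sum in each library, in rescaled TPM on axes from 0, with colours and shapes per clone and lines at group means. Null clones lie below control clones for Ncoa4 and above them for Gm6768 at every stage, and the sums average 43.9 to 60.3.

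The genes whose level most resembled that of Trf were ranked among 7553 genes with a mean of at least 5 rescaled TPM. Over the 18 libraries the 5 highest Pearson correlations on the log2(rescaled TPM + 1) scale belonged to Myo6 (0.921), Trpm5 (0.915), Bfsp2 (0.910), Ippk (0.909) and Tmod2 (0.906). After the mean of each stage was subtracted they belonged to Myo6 (0.930), Evi5l (0.929), Tmem223 (0.925), Gm6166 (0.924) and Exoc4 (0.921). These are descriptions over 18 points that share 6 clones, the library composition and the genotype difference. Among the other members Slc11a2 came closest, at 0.796 over the libraries (rank 109), followed by Fth1 at 0.603 (rank 838), while Tfrc stood at -0.033.

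Myo6, a motor protein that walks along actin, rose from 6.19, 12.4 and 14.3 rescaled TPM in control OPCs to 70.6, 44.4 and 67.6 at DIV2. In null clones it rose from 5.89, 5.67 and 5.04 to 20.3, 26.0 and 18.3. Bfsp2, an intermediate filament protein known from the eye lens, had 24.9, 24.9 and 25.3 in control and 3.35, 2.80 and 2.61 in null clones at DIV2. Null minus control for Bfsp2 was -1.64, -2.74 and -2.51 at the 3 stages, beside -1.88, -4.07 and -3.78 for Trf.

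Bfsp2 is also a neighbour of Trf, at chr9:103424924-103480420 on the same strand, 194 kb away. A window of 500 kb on each side of Trf, chosen after this was seen, held 9 other tested genes. Outside Bfsp2, none of them was called between genotypes by limma at any stage (adjusted p 0.0502 to 0.996), and 3, 2 and 0 of these 8 had an unadjusted p under 0.05 at the 3 stages. For the unadjusted counts no share of all genes is given, so they have no background. On one side of Trf, null minus control was 0.12, -0.07 and 0.00 for Srprb, a subunit of the signal recognition particle receptor, and -0.90, -0.72 and -0.42 for Rab6b, a small GTPase of vesicle transport. On the other side it was 0.60, 0.27 and 0.07 for Topbp1, a DNA replication and repair factor. Rab6b was among the genes with an unadjusted p under 0.05 in OPCs and at DIV2. The overlapping Gm20425, too low to be tested, averaged 1.08, 1.41 and 1.40 rescaled TPM in control and 0.16, 0.460 and 0.645 in null clones. Of the 9 genes named for their likeness to Trf, Myo6, Tmod2, Gm6166 and Bfsp2 lie on chromosome 9, which holds 5.72% of the ranked genes with a position.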

How the data were processed

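Per the labels' protocols, stranded libraries were prepared from total RNA after ribosomal RNA had been removed (18 in all). The submitters' processing notes name STAR, Picard and the mm10 genome, and the tool that computed the values is not given in the sources used here. The deposited values are TPM for 93666 transcripts per library as the authors computed them. They were summed by gene symbol to 38046 genes (25 names turned into dates were restored) and divided by median-of-ratios factors from 11432 genes. The factors were 0.125 to 0.317 in control OPCs and 0.723 to 2.01 elsewhere.

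Genes with a mean of at least 1 rescaled TPM (12462) were tested on log2(rescaled TPM + 1) with limma 3.58.1 in R 4.3.3, with group means over all 18 libraries, eBayes with a mean trend and Benjamini-Hochberg adjustment within each comparison. Genes with an adjusted p under 0.05 were called. The fit was tested on simulated data. Differences between genotypes are null minus control, and differences between changes are the null change minus the control change. Markers and lists were read as summed levels or counts, and no set test was run. Positions, transcripts and hairpins came from GENCODE M21 on GRCm38, which holds 96.6% of the transcripts and may not be the annotation the authors used. Shared sequence was measured in words of 31 bases. Python 3.11.15, numpy 2.4.6, pandas 2.3.3 and matplotlib 3.10.9 were used.

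The members, lists and tests were chosen with earlier results of these data known. Named were all members, ferritin copies, the 5 genes most like Trf by each measure, and pathway genes called between genotypes with a mean of at least 5 rescaled TPM and no overlap. The same clone was sampled at each stage, which pairs libraries across stages. Deviations from the group means correlated at 0.12 on average between stages of 1 clone (-0.01 to 0.42). The highest average was 0.31, between DIV2 and DIV4 of control clones. Between clones the average was -0.06. This value is largely fixed by the first, because the deviations of a group sum to 0, and is no separate baseline. Clones of different genotypes share only a number.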

Additional observations from a re-analysis of the deposited data

Results flagged for a closer look

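Tfrc, the transferrin receptor, changed differently in the 2 genotypes between OPC and DIV2. Control clones went from 15, 5.43 and 12.4 to 21, 20.7 and 21.4 rescaled TPM, and null clones from 18.1, 23.5 and 21.8 to 9.38, 13.3 and 11.2. The level was higher at DIV2 in each control clone and lower in each null clone. The null change minus the control change was -1.84 on the log2(rescaled TPM + 1) scale (SE 0.36, limma adjusted p = 0.0422). Over the alternatives listed below the adjusted p ranged from 0.000302 on the deposited TPM to 0.314 without null 7F. The summed level of the 7 OPC markers in the table fell over the same days in both genotypes, from 637 to 956 down to 306 to 500.5 rescaled TPM in control clones and from 478 to 587 down to 223 to 303 in null clones, and its part in the Tfrc difference was not tested.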

How the results depend on the processing

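Alternatives were the deposited TPM, quantile normalization, scaling to the protein-coding total, no filter, a pseudocount of 0.1, a minimum mean of 5, no mean trend, only the libraries compared, the clone as a replicate block, copies added, protein-coding transcripts and leaving out each clone. Leaving out the control D7 DIV4 library, and adding Gm6768 to Ncoa4 and Gm20425 to Trf, were chosen after the data were seen. The cause of the changes below was not tested. In OPCs, 1 member was called between genotypes, but 6 on the deposited TPM, 2 with the protein-coding total, 0 with no filter or only the libraries compared, and 0 to 1 when a clone was left out. At DIV2 the count of 1 became 0 with a mean of at least 5, which left Steap3 untested, 2 with only the libraries compared, and 0 to 2 without a clone. At DIV4 the count of 0 became 1 (Fth1) without the control D7 DIV4 library and 0 to 1 without a clone.

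From OPC to DIV2 the 3 members called in control clones became 9 on the deposited TPM, 6 with the protein-coding total, 2 with only the libraries compared (without Tfrc), and 3 to 4 without a clone. The 3 called in null clones became 5 with quantile normalization or the protein-coding total, 1 with no filter, and 1 to 4 without a clone. From DIV2 to DIV4 the count of 0 in control clones became 1 with quantile normalization, the protein-coding total, only the libraries compared or protein-coding transcripts (Tfrc), 3 without the control D7 DIV4 library (Fth1, Hmox1 and Tfrc), and 0 to 2 without a clone. In null clones it became 2 with only the libraries compared (Ftl1 and Hmox1) and 0 to 1 without a clone.

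For the difference between changes over the first 2 days, the 1 member called became 7 on the deposited TPM, 2 with the replicate block (Tfrc and Steap3), 0 with a pseudocount of 0.1, no filter or only the libraries compared, and 0 to 2 without a clone. The replicate block changed no call of a member beyond Steap3 there and Aco1 in control clones. The same difference for Trf was -2.18, and -3.85 on the deposited TPM.

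On the deposited TPM, null minus control in OPCs turned positive for Fth1 (1.66), Ftl1 (2.07), Slc11a2 (1.42), Aco1 (1.86), Hmox1 (1.13, from -0.54, with no call in either), Abcb6 (1.36), Ncoa4 (0.83) and Slc39a14 (1.51). There Hmox1 was 1.66 from OPC to DIV2 in control clones and the difference between changes for Ftl1 was -1.92. With Gm6768 added, Ncoa4 turned to 0.12, 0.03 and 0.30. Depth is unknown, so the counting error of the lowest levels, such as those of Slc40a1, cannot be estimated.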
